A study of Mus musculus with 45 samples.

Results

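The NMDA receptor subunit genes Grin1, Grin2a, Grin2b, Grin2c, Grin2d, Grin3a and Grin3b were picked by symbol from the counts of 45 mouse hippocampal neuron libraries. All 7 of the 7 listed genes were found among the 54532 genes of the count table, and each had reads in every library. Neurons were prepared from newborn C57BL/6N mice, grown with 1% rat serum and with AraC, which curbs dividing cells, added on day in vitro 3, and treated on day 10 or 11. Cultures of this kind still hold glia and several neuron types, so a change of a level can come from fewer cells of a type or from less RNA per cell, and bulk counts cannot tell these apart.

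The study asked how excitotoxic NMDA receptor signaling disturbs the transcriptional response to synaptic activity. Control cultures were untreated, and cultures named 0.5 h Bic, 1 h Bic or 2 h Bic by the duration received bicuculline (Bic, 50 µM), which blocks GABA type A receptors and evokes action potential (AP) firing. In the short protocol (SP), cultures fired in Bic for 0.5 h. For another 0.5 h, tetrodotoxin (TTX, 1 µM), a blocker of AP firing, was added without NMDA (SP TTX) or with it (30 µM, SP TTX/NMDA). In the long protocol (LP), both steps took 1 h. The agents added in its second step were TTX (LP TTX), TTX plus NMDA (LP TTX/NMDA), or TBOA (50 µM, LP TBOA). TBOA blocks glutamate uptake so that transmitter can spill out of synapses. Per the study's methods, Bic stayed present during the second step of both protocols. Each of the 9 conditions had 5 libraries, 1 from each of the culture preparations 1, 3, 6, 7 and 8, so that the preparation is the replicate and same-numbered libraries share it. Total counts ranged from 11316580 to 81129276 per library (median 26239614).

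NMDA receptors are tetrameric cation channels opened by glutamate together with glycine or D-serine, and they pass calcium once depolarization has relieved their magnesium block. GluN1, encoded by Grin1, is the obligatory subunit and binds the co-agonist, GluN2A to GluN2D (Grin2a to Grin2d) bind glutamate and set the kinetics of the channel, and GluN3A and GluN3B (Grin3a and Grin3b) bind glycine and lower calcium entry. In forebrain neurons GluN2B prevails early in life and GluN2A joins it with maturation, GluN2D is known from interneurons, and GluN2C from the cerebellum and from astrocytes.

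The genes descend from a common ancestor and are most alike over the channel-forming segments, which matters for counts made from 75-base reads. The stretch below, given for 5 of the 7 genes, from the coding exons for the third membrane segment that lines the channel gate, is shown because it is among the most conserved of the family. It is given 5′ to 3′ on the coding strand, and capitals mark bases that differ from Grin1 at the same place.
Grin1: tcctacactgccaacctggcagccttc
Grin2a: AGTtacacAgccaacctggcTgccttc
Grin2c: AGctacacGgccaaTctggcagccttc
Grin3a: AcAtacacAgcGaacTtggcTgcTGtc
Grin3b: AGTtacacAgccaacctggcagcTGtc
Even there the 4 others shown differed from Grin1 at 4 (Grin2c) to 8 (Grin3a) of 27 bases. Across all annotated transcripts, 0 of the 75-base sequences of any subunit gene occurred in another, and reads that mapped to several places had not been counted.

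On GRCm38 the stretches lie in exon 15 of Grin1 (chr2:25297199-25297225), exon 8 of Grin2a (chr16:9653447-9653473), exon 9 of Grin2c (chr11:115253749-115253775), exon 3 of Grin3a (chr4:49770470-49770496) and exon 3 of Grin3b (chr10:79974636-79974662). Of the 7 genes, Grin3b is on the plus strand and the others are on the minus strand. No subunit gene shared exon bases with another gene on its own strand. On the opposite strand, Tmem259 covered 32.1% of the exon bases of Grin3b, Grin1os 13.5% of those of Grin1 and Gm45441 9.66% of those of Grin2d, and the counting used strand.

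In untreated neurons, Grin1 had the highest level per length of the family, at 50.8 ± 8.28 CPM (read counts scaled to the TMM-normalized library total) per kilobase of merged exons (SD, n = 5). Grin2b followed at 28.9 ± 5.65, then Grin2a at 7.03 ± 1.45, Grin2d at 5.73 ± 1.02 and Grin3a at 5.41 ± 0.577 CPM per kilobase. Grin2c, at 0.174 ± 0.0431, and Grin3b, at 0.0455 ± 0.0215 CPM per kilobase, were far below. In this order the libraries of Grin2a and Grin2d overlapped, as did those of Grin2d and Grin3a, and the other neighbours did not. The cultures thus held mainly Grin1 and Grin2b mRNA, with Grin2a at a lower level.

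Without division by length, the mean levels over the 45 libraries were 652 CPM for Grin2b, 505 for Grin1, 112 for Grin2a, 67.6 for Grin3a and 43.3 for Grin2d. Grin2c had 1.08 CPM from 8 to 98 reads per library, and Grin3b had 0.249 CPM from 2 to 21 reads. Changes of these rare transcripts therefore carry wide errors, and a low-count filter kept Grin3b in only 2 of 15 tests but the other 6 genes in all 15. The lists of neuronal markers were detected in full, and astrocyte markers were present too: the sum over 7 of them, Gfap and Aqp4 included, ranged from 450.0 to 832 CPM in the controls, against 5395 to 6350 CPM for 6 neuronal markers.

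**Figure D1:**
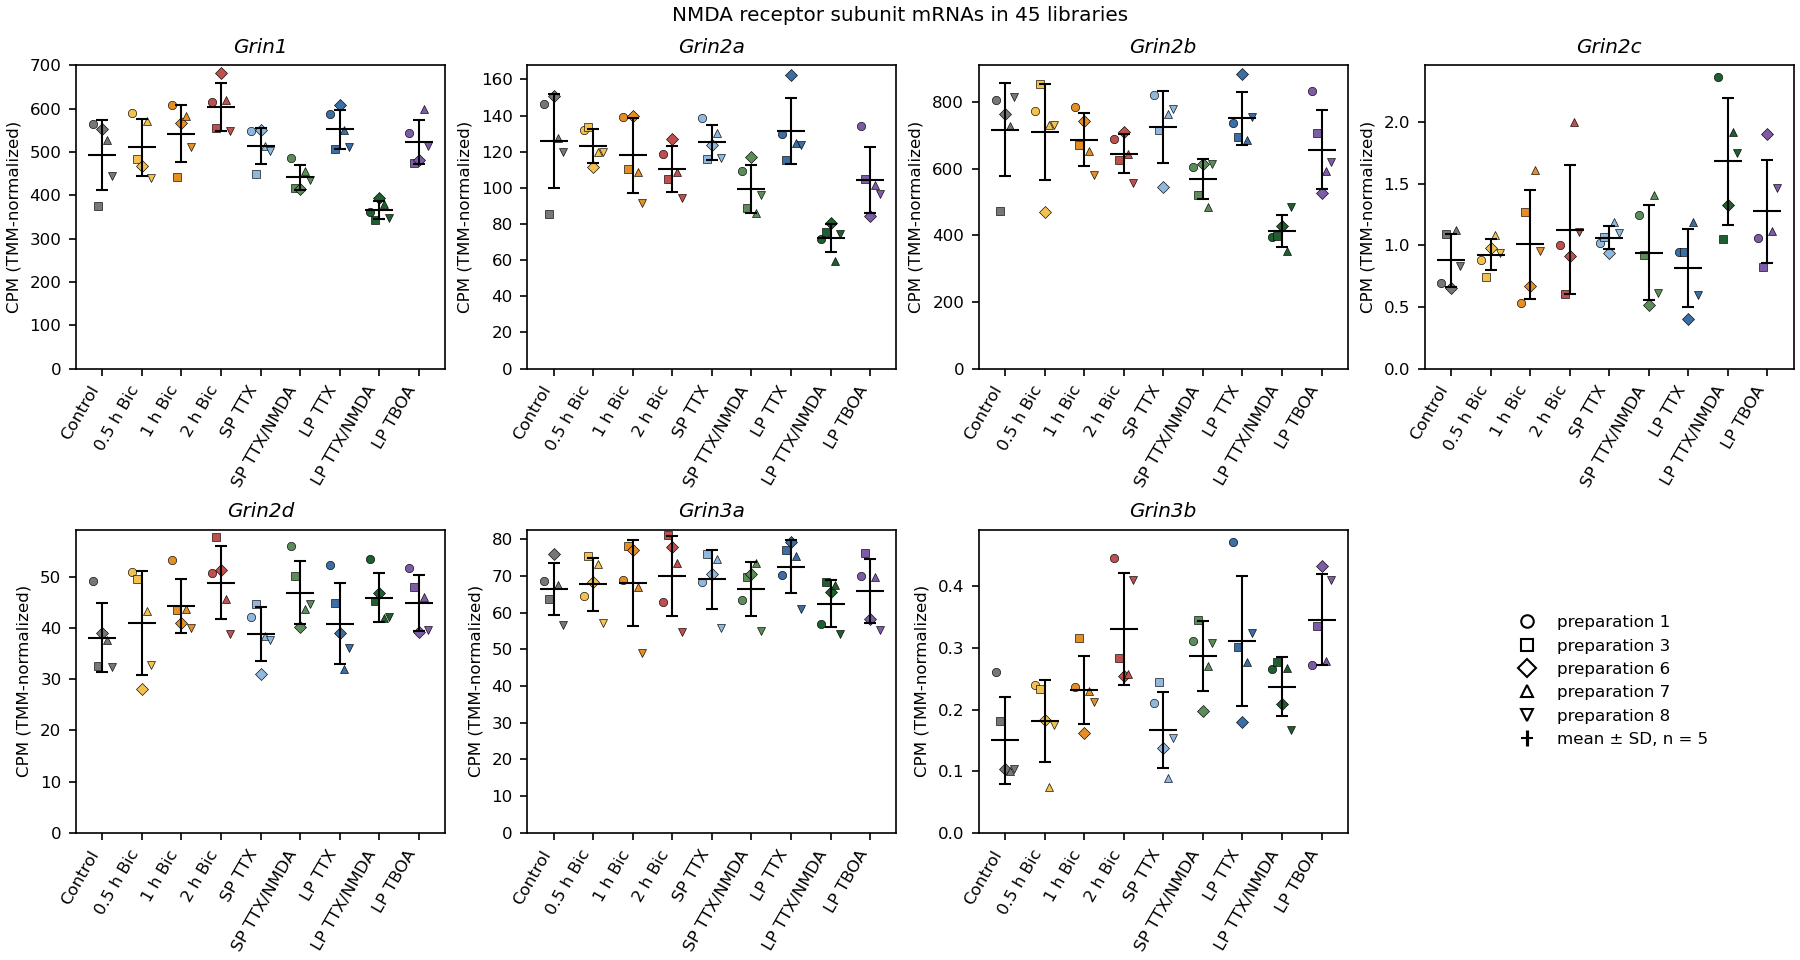
TMM-normalized CPM (y axes, linear, from 0) of each subunit gene in the 9 conditions (x axes), with 1 point per library, its shape marking the culture preparation, and bars for the mean ± SD of 5 libraries. The means of Grin1, Grin2a and Grin2b are lowest in LP TTX/NMDA, and the points of Grin2c and Grin3b sit at 2.36 CPM or below.

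NMDA for 1 h during TTX lowered the 3 main subunit mRNAs together. In this comparison of LP TTX/NMDA with LP TTX, the LP active effect, Grin1, Grin2a, Grin2b and Grin3a fell, the rare Grin2c rose, and Grin2d and Grin3b did not pass the test. That is 5 of 7 genes called, 4 lower and 1 higher, where 23.3% of all 32852 genes tested were called (11.8% lower and 11.6% higher) and 46.9% of the 13592 genes with a mean of at least 1 CPM. Calls are at a Benjamini-Hochberg adjusted p-value under 0.05 over all genes in edgeR's quasi-likelihood test. The median log2 fold change of the 7 genes was −0.36, beside 0.11 over all genes tested and −0.01 over those with at least 1 CPM.

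For Grin2b, whose product is the prevailing glutamate-binding subunit of young forebrain neurons, LP TTX libraries had 738, 694, 884, 685 and 754 CPM in preparations 1, 3, 6, 7 and 8. LP TTX/NMDA libraries had 396, 399, 427, 354 and 484 CPM in the same order. Every NMDA-treated library was below every TTX library. The log2 fold change was −0.88 (SE 0.08, adjusted p = 9.2e-10), where it fell by 44.96% ± 6.08 within preparations (SD, n = 5).

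Grin2a, which encodes the subunit that gains weight with maturation, had 130, 115, 163, 125 and 124 CPM in LP TTX. It had 71.5, 75.4, 80.6, 59.4 and 74.7 CPM in LP TTX/NMDA. Again the conditions did not overlap, and the log2 fold change of −0.87 (SE 0.08, adjusted p = 3.7e-09) was close to that of Grin2b. Within preparations Grin2a dropped by 44.4% ± 7.45 (SD, n = 5).

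Grin1, the subunit every receptor needs, had 587, 506, 607, 550 and 511 CPM in LP TTX and 362, 343, 393, 379 and 348 CPM in LP TTX/NMDA. It was also lower in every NMDA-treated library. Its fall was smaller in value than those of Grin2a and Grin2b, a difference that the ratio tests below called for Grin2a and not for Grin2b. The log2 fold change was −0.60 (SE 0.07, adjusted p = 7.5e-08), and within preparations it dropped by 33.7% ± 3.03 (SD, n = 5). These were the 3 of 7 genes whose conditions did not overlap, where 33% of the genes with at least 1 CPM had conditions without overlap. Their calls held in all 11 alternative settings.

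Grin3a, whose glycine-binding product lowers calcium entry, had 70.1, 77, 79.1, 75.3 and 60.9 CPM in LP TTX and 56.8, 68.3, 65.5, 67.5 and 54.2 CPM in LP TTX/NMDA. It was lower in 5 of 5 preparations while the ranges overlapped (log2 fold change −0.22, SE 0.08, adjusted p = 0.038). The call was lost with DESeq2 (adjusted p = 0.060), with the low-count filter (0.074), with all 45 libraries in the fit (0.136) and without preparation 1, 3 or 6 (0.102, 0.070 and 0.066), and it was kept in the paired fit, which takes the preparation as a block over genes past the filter (−0.20, adjusted p = 0.0013). Grin2d, the GluN2D gene, was slightly higher in 5 of 5 preparations, at 45.96 ± 4.71 CPM against 40.9 ± 7.93 (SD, n = 5). It was not called (log2 fold change 0.17, SE 0.10, adjusted p = 0.25) except with the block (0.20, adjusted p = 0.0087 in the paired fit). The paired fit called 62.1% of all genes in this comparison.

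Grin2c went the other way. In LP TTX it had 0.944, 0.946, 0.404, 1.19 and 0.595 CPM from 9 to 73 reads per library. In LP TTX/NMDA it had 2.36, 1.05, 1.32, 1.92 and 1.74 CPM from 19 to 98 reads. Grin2c was higher in 5 of 5 preparations with overlapping ranges (log2 fold change 0.97, SE 0.25, adjusted p = 0.0036), and the call held in all 11 alternative settings. Grin3b, from 3 to 17 reads per library, had 0.237 ± 0.0478 CPM against 0.311 ± 0.106 (SD, n = 5) and was not called (log2 fold change −0.36, SE 0.33, adjusted p = 0.44).

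Markers of cell types moved in the same comparison, and their part in these results was not tested. All 7 of 7 astrocyte markers rose (median log2 fold change 0.84), their sum going from 458 to 962 CPM in LP TTX to 816 to 1716 CPM in LP TTX/NMDA, and 5 of 7 oligodendrocyte lineage markers rose (median 0.77). Of 6 excitatory neuron markers 5 fell and 0 rose (median −0.59), their sum going from 1603 to 1916 CPM to 1067 to 1454 CPM. Of 6 general neuronal markers 3 fell (median −0.20), and of 8 inhibitory neuron markers 3 rose (median 0.33). Microglial and endothelial markers were near the floor, with sums under 9 CPM in every library.

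**Figure D2:**
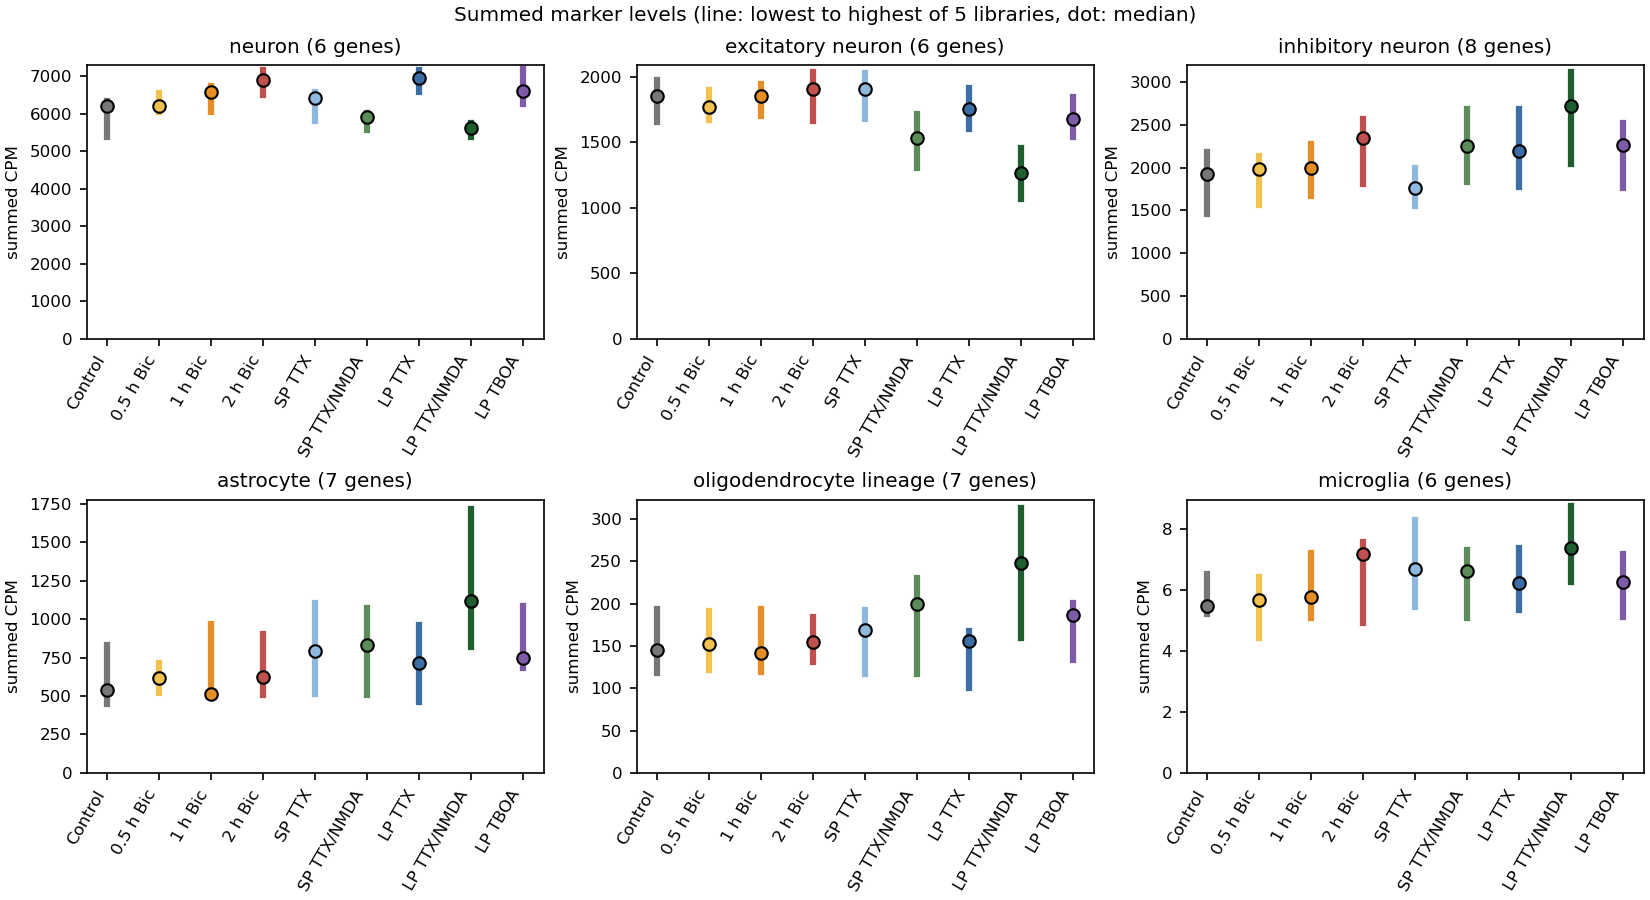
Summed CPM (y axes, linear, from 0) of 6 lists of cell type markers in the 9 conditions (x axes), as a line from the lowest to the highest of 5 libraries with a dot at the median. In LP TTX/NMDA the median excitatory neuron sum is lowest, with a range of 1067 to 1454 CPM, and the astrocyte sum reaches its highest value, 1716 CPM.

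The 0.5 h bath of NMDA gave smaller values for the same main subunits. For the SP active effect, SP TTX/NMDA against SP TTX, 2 of 7 genes were called, both lower, where 4.28% of all genes were called, 3.32% were lower, and 9.535% of those with at least 1 CPM were called. Grin2a had 139, 116, 124, 130 and 117 CPM in SP TTX and 109, 89.0, 117, 86.2 and 96.3 CPM in SP TTX/NMDA, lower in 5 of 5 preparations (log2 fold change −0.34, SE 0.08, adjusted p = 0.0059). Grin2b had 820, 715, 543, 764 and 780 CPM in SP TTX and 606, 522, 613, 485 and 614 CPM in SP TTX/NMDA, and preparation 6 alone rose (log2 fold change −0.36, SE 0.09, adjusted p = 0.011). All 7 genes overlapped between the conditions, where 10.4% of genes with at least 1 CPM did not. With all 45 libraries neither gene was called (adjusted p = 0.089 for both), and Grin2b was also lost with the low-count filter (0.062) and without preparation 7 (0.052).

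Grin1 was lower in 5 of 5 preparations after the short NMDA bath, at 441 ± 29.4 CPM against 513 ± 41.8 (SD, n = 5; log2 fold change −0.22, SE 0.07, adjusted p = 0.067), and the paired fit called it (−0.21, adjusted p = 0.017), as did DESeq2 (0.019). Grin2d was higher in 5 of 5 preparations, at 46.9 ± 6.19 CPM against 38.8 ± 5.23 (SD, n = 5; log2 fold change 0.27, SE 0.09, adjusted p = 0.081), and passed in the paired fit (0.28, adjusted p = 0.0062) and without preparation 8 (adjusted p = 0.020). In that fit 4 of 6 subunit genes tested were called, where 16.2% of all genes were. Of 8 inhibitory neuron markers 4 rose and of 6 excitatory ones 3 fell in this comparison. Of 6 general neuronal markers 2 fell, while 0 of 7 astrocyte markers were called. Their part in the values was not tested.

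The difference between the protocols was tested itself, as the LP active effect minus the SP active effect. It was negative for Grin2a (−0.52, SE 0.12, adjusted p = 0.014), Grin2b (−0.50, SE 0.13, adjusted p = 0.025) and Grin1 (−0.37, SE 0.10, adjusted p = 0.032), so the fall was steeper in the LP for these 3 of 7 genes, where 2.57% of all genes were called, 1.85% were lower, and 6.09% of those with at least 1 CPM were called. The protocols differ in the length of the NMDA bath and of the Bic treatment, and these cannot be told apart. The call on Grin2a was lost without preparation 6 (−0.40, adjusted p = 0.062), that on Grin2b without preparation 1 or 6 (0.055 and 0.167) and that on Grin1 without preparation 1, 3 or 7 (0.136, 0.073 and 0.078). With all 45 libraries only Grin2a was called. The paired fit called 6 of 7 genes, where 25% of all genes were, with Grin2c higher (1.22, adjusted p = 0.0048, also past the threshold without the block when preparation 7 was left out, adjusted p = 0.025, and with DESeq2, 0.038) and Grin3a (−0.16, adjusted p = 0.049) and Grin3b (−1.18, adjusted p = 0.036) lower in the LP.

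**Figure D3:**
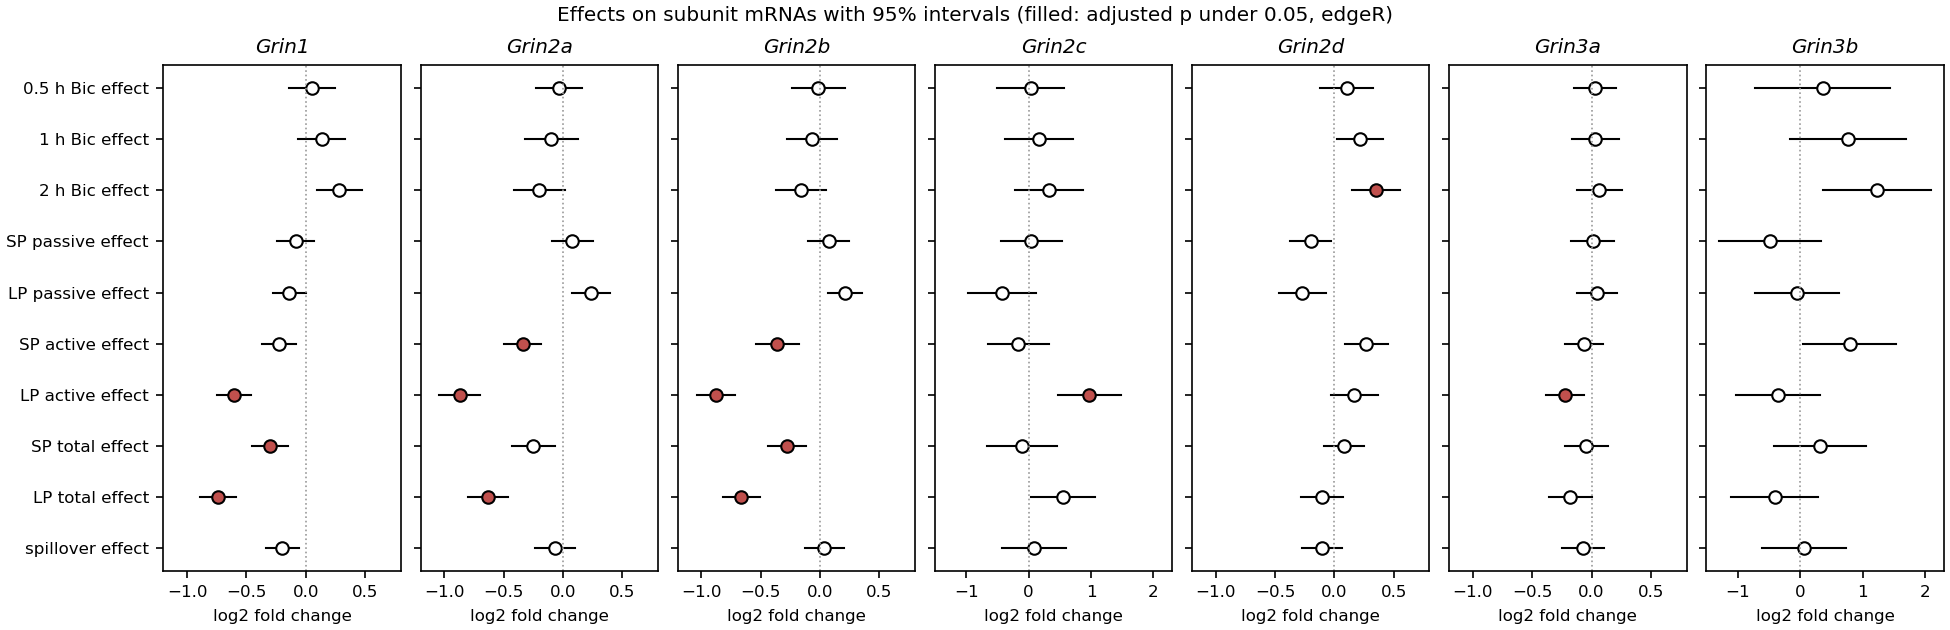
Log2 fold change (x axes) of the 7 subunit genes in 10 comparisons (rows), with 95% intervals from edgeR. Filled points have an adjusted p under 0.05. Grin1, Grin2a and Grin2b lie furthest to the left in the LP active and LP total effects, and the x axes of Grin2c and Grin3b are wider.

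Against uninterrupted firing of the same length, the total effect, the picture for the main subunits was alike in direction. In the LP total effect, LP TTX/NMDA against 2 h Bic, 3 of 7 genes were called and all 3 were lower, where 22.8% of all genes were called and 11.1% were lower. Of the genes with at least 1 CPM 45.3% were called, about the share of the subunits, and 25.1% were lower. The log2 fold changes were −0.74 for Grin1 (SE 0.07, adjusted p = 8.9e-10), −0.66 for Grin2b (SE 0.08, adjusted p = 4.2e-08) and −0.63 for Grin2a (SE 0.08, adjusted p = 2.4e-07). None of the 3 overlapped between the conditions, where 31.2% of genes with at least 1 CPM did not. The paired fit, which called 56.6% of all genes, added Grin2c (0.59, adjusted p = 0.015) and Grin3a (−0.14, adjusted p = 0.031), which had adjusted p-values of 0.12 and 0.16 without the block and passed without preparation 7 (Grin2c, 0.86, adjusted p = 0.0070) or 8 (Grin3a, −0.21, adjusted p = 0.024). As in the active effect, 7 of 7 astrocyte and 5 of 7 oligodendrocyte lineage markers rose and 4 of 6 excitatory neuron markers fell. Of 6 general neuronal markers 3 fell and of 8 inhibitory ones 2 rose. The part of these markers was not tested.

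In the SP total effect, SP TTX/NMDA against 1 h Bic, Grin1 (−0.30, SE 0.07, adjusted p = 0.012) and Grin2b (−0.28, SE 0.08, adjusted p = 0.030) were lower, 2 of 7 genes where 4.3% of all genes were called, 3.41% were lower, and 9.38% of those with at least 1 CPM were called. Of 6 excitatory neuron markers 3 fell here too, as did 2 of 6 general neuronal markers, and their part was not tested. Grin1 fell in 5 of 5 preparations and Grin2b in 4. Grin1 was lost without preparation 6 (adjusted p = 0.061), and Grin2b with the low-count filter (0.063), with all 45 libraries (0.26) and without preparation 1, 3 or 7 (0.129, 0.093 and 0.069). The paired fit, which called 27.3% of all genes, called both and Grin2a (−0.25, adjusted p = 0.0042), which also passed without preparation 8 (−0.32, adjusted p = 0.0026). The total effect was larger in the LP than in the SP for Grin1 (difference −0.44, SE 0.11, adjusted p = 0.022), 1 of 7 genes where 1.5% of all genes were called and 1.08% were lower, and this was lost without preparation 1 or 3 (0.068 and 0.103). The paired fit, which called 19.1% of all genes, added Grin2a (−0.36, adjusted p = 0.011) and Grin2b (−0.36, adjusted p = 0.018), and Grin2b passed without preparation 8 (−0.41, adjusted p = 0.014).

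Compared with neurons never exposed to Bic, LP TTX/NMDA neurons had less Grin2a (log2 fold change −0.81, SE 0.11, adjusted p = 4.5e-07), Grin2b (−0.80, SE 0.11, adjusted p = 5.0e-07) and Grin1 (−0.44, SE 0.10, adjusted p = 0.00074) and more Grin2c (0.89, SE 0.24, adjusted p = 0.0060). These were 4 of 7 genes, where 19.5% of all genes were called, 8.55% lower and 10.9% higher, and 36.8% of those with at least 1 CPM. So the main subunits ended below their starting level, with Grin2a at 72.3 ± 7.94 CPM against 126 ± 25.95 in the control (SD, n = 5). The call on Grin2c was lost without preparation 1 (0.67, adjusted p = 0.084). Grin2d was higher in 5 of 5 preparations (0.27, SE 0.10, adjusted p = 0.051). It was called in the paired fit (0.29, adjusted p = 0.0046), which called 47.2% of all genes, and without preparation 1 or 7 (adjusted p = 0.030 and 0.046). Markers moved in this comparison as well, with 7 of 7 astrocyte (median log2 fold change 0.92), 6 of 8 inhibitory neuron (0.46) and 5 of 7 oligodendrocyte lineage markers (0.785) higher and 3 of 6 excitatory neuron markers lower (−0.44). The astrocyte sum went from 450.0 to 832 CPM in the control to 816 to 1716 CPM, the inhibitory one from 1455 to 2191 CPM to 2044 to 3118 CPM, the oligodendrocyte lineage one from 118 to 194 CPM to 159 to 313 CPM and the excitatory one from 1653 to 1974 CPM to 1067 to 1454 CPM. Of 6 general neuronal markers 1 fell. The part of these markers in the subunit values was not tested.

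For SP TTX/NMDA against the control 0 of 7 genes were called, where 1.27% of all genes were. DESeq2 called 0, at an unadjusted p under 0.05 edgeR had 4, and the paired fit, which called 11.1% of all genes, called Grin2a (−0.34, adjusted p = 0.019), Grin2b (−0.33, adjusted p = 0.033) and Grin2d (0.29, adjusted p = 0.038). Leaving out preparation 3 or 8 also made Grin2a (−0.41 and −0.37, adjusted p = 0.0021 and 0.022) and Grin2b (−0.42 and −0.34, adjusted p = 0.00055 and 0.043) pass. Of the markers, 1 of 8 inhibitory neuron genes was higher and 2 of 6 excitatory neuron genes were lower, and their part was not tested.

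Firing by itself gave few calls on single subunits without the block, while the ratios to Grin1, given below, moved after 2 h Bic. After 0.5 h Bic and after 1 h Bic, 0 of 7 genes were called, where 0.289% and 1.16% of all genes were. At an unadjusted p under 0.05 edgeR had 0 and 1 (Grin2d), and DESeq2 called 0 at either time. After 2 h Bic, Grin2d alone was called, 1 of 7 genes where 9.02% of all genes were called and 4.24% were higher. Of the genes with at least 1 CPM, 18.6% were called and 8.18% were higher. Grin2d had 49.1, 32.6, 39.1, 37.7 and 32.4 CPM in the control and 50.7, 57.8, 51.4, 45.7 and 38.8 CPM after 2 h. It was higher in 5 of 5 preparations, most in preparation 3 (log2 fold change 0.35, SE 0.10, adjusted p = 0.019). The call was lost without preparation 3 (0.24, adjusted p = 0.105) and, narrowly, with the low-count filter (0.36, adjusted p = 0.0504). Of 8 inhibitory neuron markers 2 rose in the same comparison (median log2 fold change 0.21), their sum going from 1455 to 2191 CPM to 1806 to 2576 CPM, and their part in the Grin2d value was not tested.

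Grin1 rose in 5 of 5 preparations with 2 h Bic, from 564, 376, 552, 528 and 445 CPM to 615, 556, 683, 620 and 548 CPM. Its log2 fold change of 0.28 (SE 0.09) missed the threshold with an adjusted p of 0.055. It passed in the paired fit (0.30, adjusted p = 0.0030), which called 29.3% of all genes, and without preparation 1 or 8 (adjusted p = 0.046 and 0.043). Grin2a (−0.20, SE 0.11, adjusted p = 0.32) and Grin2b (−0.16, SE 0.10, adjusted p = 0.42) were lower in 4 of 5 preparations. The exception was preparation 3, whose control library had the lowest Grin1, Grin2a and Grin2b of the 5 controls. Without preparation 3 both were called, Grin2a at −0.29 (adjusted p = 0.012) and Grin2b at −0.27 (adjusted p = 0.012). Grin3b had 2 to 5 reads per control library and 7 to 10 after 2 h Bic (log2 fold change 1.23, SE 0.42, adjusted p = 0.066).

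When TTX stopped the firing, the LP passive effect, 0 of 7 genes were called without the block, where 4.65% of all genes were. At an unadjusted p under 0.05 edgeR had 4, and DESeq2 called 0. The preparations moved alike: Grin2a and Grin2b were higher in 5 of 5 with LP TTX than with 2 h Bic, and Grin1 was lower in 5 of 5. The paired fit, which called 32% of all genes, had Grin2a (0.23, adjusted p = 0.00083) and Grin2b (0.20, adjusted p = 0.0032) higher and Grin1 (−0.15, adjusted p = 0.0056) and Grin2d (−0.29, adjusted p = 0.0018) lower, against adjusted p-values of 0.091, 0.090, 0.32 and 0.13 without the block. Without the block, Grin2a passed when preparation 3 was left out (adjusted p = 0.047) and Grin2d when preparation 1 or 8 was (0.035 and 0.014). In the SP passive effect 0 of 7 genes were called, where 0.268% of all genes were, and 0 of 6 in the paired fit, where 0.489% were, and the test of the difference between the protocols called 0 of 7 genes, where 0.256% of all genes were. At an unadjusted p under 0.05 edgeR had 1 gene (Grin2d) in the former and 0 in the latter, and DESeq2 called 0 in both.

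Glutamate spillover gave no call on a subunit without the block. With LP TBOA against 2 h Bic, 0 of 7 genes were called, where 0.602% of all genes were, and 0 of 6 in the paired fit, where 2.67% were. DESeq2 called 0, and at an unadjusted p under 0.05 edgeR had 1, Grin1. Grin1 was lower in 5 of 5 preparations, at 545, 474, 482, 598 and 513 CPM (log2 fold change −0.20, 95% interval −0.34 to −0.06, adjusted p = 0.33), an interval below 0. Grin1 was called only with the block over all genes (adjusted p = 0.0015) and not in the paired fit (0.091). Grin2a (interval −0.24 to 0.10) and Grin2b (−0.13 to 0.20) had intervals that span 0. Both stay above the LP total values of −0.63 and −0.66, which have the same reference, 2 h Bic.

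Ratios of counts within a library do not depend on its normalization, and only their changes are read here because gene lengths differ. The ratio of Grin2a to Grin2b, which tracks the subunit switch of maturing synapses, stayed within its spread in the LP active effect. Its log2 value was −2.51 ± 0.12 in LP TTX/NMDA and −2.52 ± 0.08 in LP TTX (SD, n = 5). The difference within preparations was 0.01 ± 0.12 (SD, n = 5). The exact two-sided permutation test, which does not use the pairing, gave p = 0.87. Over the 12 comparisons the difference lay between −0.10 (LP TBOA against 2 h Bic, p = 0.032 by exact permutation, adjusted p = 0.14 over 36 tests) and 0.04, and 0 of 12 were called.

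The ratios to Grin1 did move. After 2 h Bic the log2 ratio of Grin2a to Grin1 was −2.45 ± 0.07 against −1.98 ± 0.11 in the control, and that of Grin2b to Grin1 was 0.09 ± 0.07 against 0.53 ± 0.20 (SD, n = 5). Both were lower in 5 of 5 preparations without overlap between the conditions, by −0.47 and −0.44 (exact two-sided permutation p = 0.0079 each, the smallest that 252 splits can give, adjusted p = 0.048). With LP TTX both were higher than with 2 h Bic, by 0.37 and 0.35 in 5 of 5 preparations (exact permutation p = 0.0079 each, adjusted p = 0.048). After 1 h Bic, the time at which TTX was added in the LP, the ratios were −2.21 ± 0.23 and 0.34 ± 0.18, against −2.08 ± 0.11 and 0.44 ± 0.11 in LP TTX (SD, n = 5), a difference that was not tested.

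NMDA lowered the ratio of Grin2a to Grin1 again, by −0.26 in LP TTX/NMDA against LP TTX, in 5 of 5 preparations (exact permutation p = 0.0079, adjusted p = 0.048). The ratio of Grin2b to Grin1 changed by −0.27 in 5 of 5 preparations and was not called (exact permutation p = 0.040, adjusted p = 0.16). Against the control, LP TTX/NMDA had a difference of −0.36 in both ratios, called for Grin2a (exact permutation p = 0.0079, adjusted p = 0.048) and not for Grin2b (p = 0.032, adjusted p = 0.14). With sign flips within the 5 preparations the smallest possible p is 0.0625, so that test could not reach the threshold. With 1 preparation left out the smallest is 0.029 before adjustment, and 0 of 36 tests were called without any 1 preparation.

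**Figure D4:**
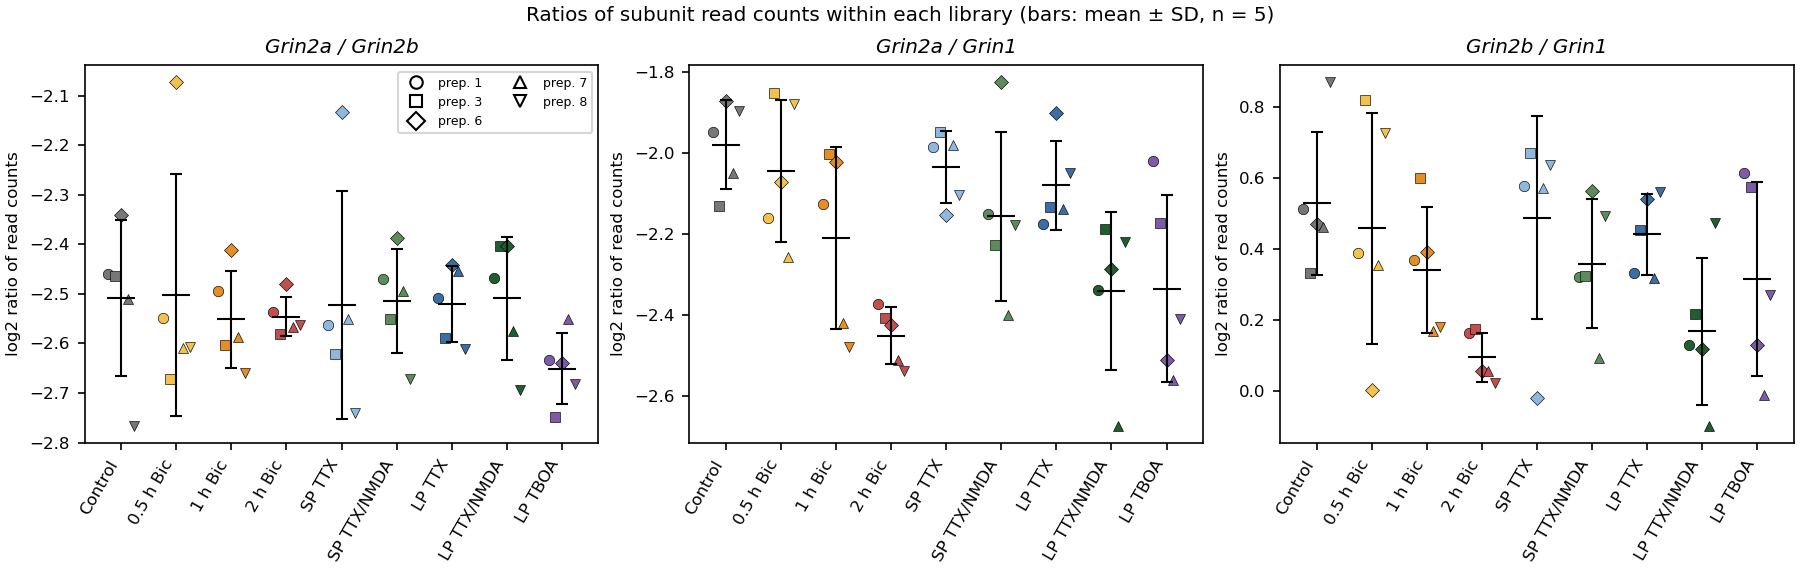
Log2 ratio of the read counts of 2 subunit genes within each library (y axes, each with its own range) in the 9 conditions (x axes), with 1 point per library, its shape marking the preparation, and bars for the mean ± SD of 5 libraries. The ratios to Grin1 are low and tight after 2 h Bic, at −2.45 ± 0.07 and 0.09 ± 0.07, while Grin2a to Grin2b stays near −2.5.

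Ordered by level, the 9 conditions formed a continuum for most subunits. For Grin1 the means ran from 604 ± 55.04 CPM in 2 h Bic to 441 ± 29.4 in SP TTX/NMDA and 365 ± 20.9 in LP TTX/NMDA (SD, n = 5). For Grin2a they ran from 131 ± 18.3 CPM in LP TTX to 99.6 ± 13.2 in SP TTX/NMDA and 72.3 ± 7.94 in LP TTX/NMDA, and for Grin2b from 751 ± 79.7 CPM in LP TTX to 568 ± 60.2 and 412 ± 47.9 in the same conditions. In each of these 3 genes, 7 of 8 neighbouring pairs in the order overlapped, and the step from SP TTX/NMDA down to LP TTX/NMDA did not. The share of all genes without overlap at this step was not counted, so the gap is not read as particular to them. Grin2c, Grin2d, Grin3a and Grin3b overlapped in 8 of 8 pairs, Grin2d running from 48.9 ± 7.08 CPM in 2 h Bic to 38.2 ± 6.81 in the control and Grin3a from 72.5 ± 7.25 in LP TTX to 62.4 ± 6.47 in LP TTX/NMDA.

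Likeness of pattern is given as Pearson's r of log2 CPM over the 45 libraries after the mean of each preparation was subtracted, among 13592 genes with at least 1 CPM. The libraries share treatments, so r is a description. Grin2a and Grin2b resembled each other (r = 0.954), Grin2a being the second most similar gene to Grin2b. Ntrk3, the receptor of neurotrophin-3, was close to both (r = 0.964 with Grin2a and 0.965 with Grin2b), as were Sel1l (0.968) and the sodium channel gene Scn2a (0.960) to Grin2a and Tmem178b (0.947) to Grin2b. Grin1 was less like them (0.725 with Grin2a and 0.731 with Grin2b) and had Mapk8ip3 (0.977) and Cmip (0.969) among the genes closest to it.

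The remaining genes had other neighbours. Grin2c was closest to Ephx2 (0.879), S100a16 (0.817) and Slc25a18 (0.805), a mitochondrial glutamate carrier, and ran against Grin2a (−0.697). Grin2d was closest to Iglon5 (0.843), Slc32a1 (0.843), the vesicular GABA transporter and 1 of the inhibitory neuron markers used here, and Pitpnm3 (0.826). Grin3a was closest to Neto1 (0.839), which encodes an auxiliary protein of glutamate receptors, Peak1 (0.826) and the netrin receptor gene Unc5c (0.818).

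Genes that anchor, modify or relay the receptor were counted from 4 lists of 49 genes in all. In the LP active effect, 11 of 14 anchoring and trafficking genes fell and 2 rose, with a median log2 fold change of −0.30. Dlg2, a scaffold that binds the tails of GluN2 subunits, had the largest change (−0.89, SE 0.08, adjusted p = 3.6e-10), followed by Lin7a (−0.71, SE 0.09, adjusted p = 6.9e-07), Ephb2, a receptor tyrosine kinase that binds GluN1 (−0.48, SE 0.07, adjusted p = 3.3e-06), and Pacsin1 (−0.41, SE 0.08, adjusted p = 0.00012). The 2 that rose were Lin7b (0.35) and Gipc1 (0.22), named after their values were seen.

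Of 13 kinase and phosphatase genes acting on the receptor 8 fell and 0 rose (median −0.21). Camk2a, the α subunit of the kinase that docks on GluN2B, fell most (−1.13, SE 0.09, adjusted p = 1.1e-10), ahead of Camk2b (−0.42) and the calcineurin genes Ppp3cb (−0.36) and Ppp3r1 (−0.26). Of 12 downstream genes 7 fell and 0 rose (median −0.42), among them Rasgrp1 (−1.18, SE 0.17, adjusted p = 2.6e-06), the neuronal nitric oxide synthase gene Nos1 (−0.70) and Rasgrf1 (−0.65).

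The 10 co-agonist genes were mixed, with 2 higher, 2 lower and a median of 0.09. Srr, which makes D-serine, fell (−0.62, SE 0.07, adjusted p = 2.8e-08), as did Slc1a4 (−0.20, adjusted p = 0.017), a neutral amino acid carrier. Phgdh, the first enzyme of serine synthesis, rose (0.56, SE 0.10, adjusted p = 0.00014), as did Slc7a10 (1.02, SE 0.37, adjusted p = 0.048), at a mean of 0.222 CPM. In the SP active effect 3 of 14 anchoring and 1 of 13 kinase and phosphatase genes fell. So did 5 of 12 downstream and 1 of 10 co-agonist genes, and 0 of 49 rose. Lower calls made up 3.32% of all genes and 7.81% of those with at least 1 CPM. In the spillover comparison 0 of 49 were called. The shares of all genes called in these comparisons are given above for the subunits, and the marker changes of the LP active effect apply to these lists too.

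**Figure D5:**
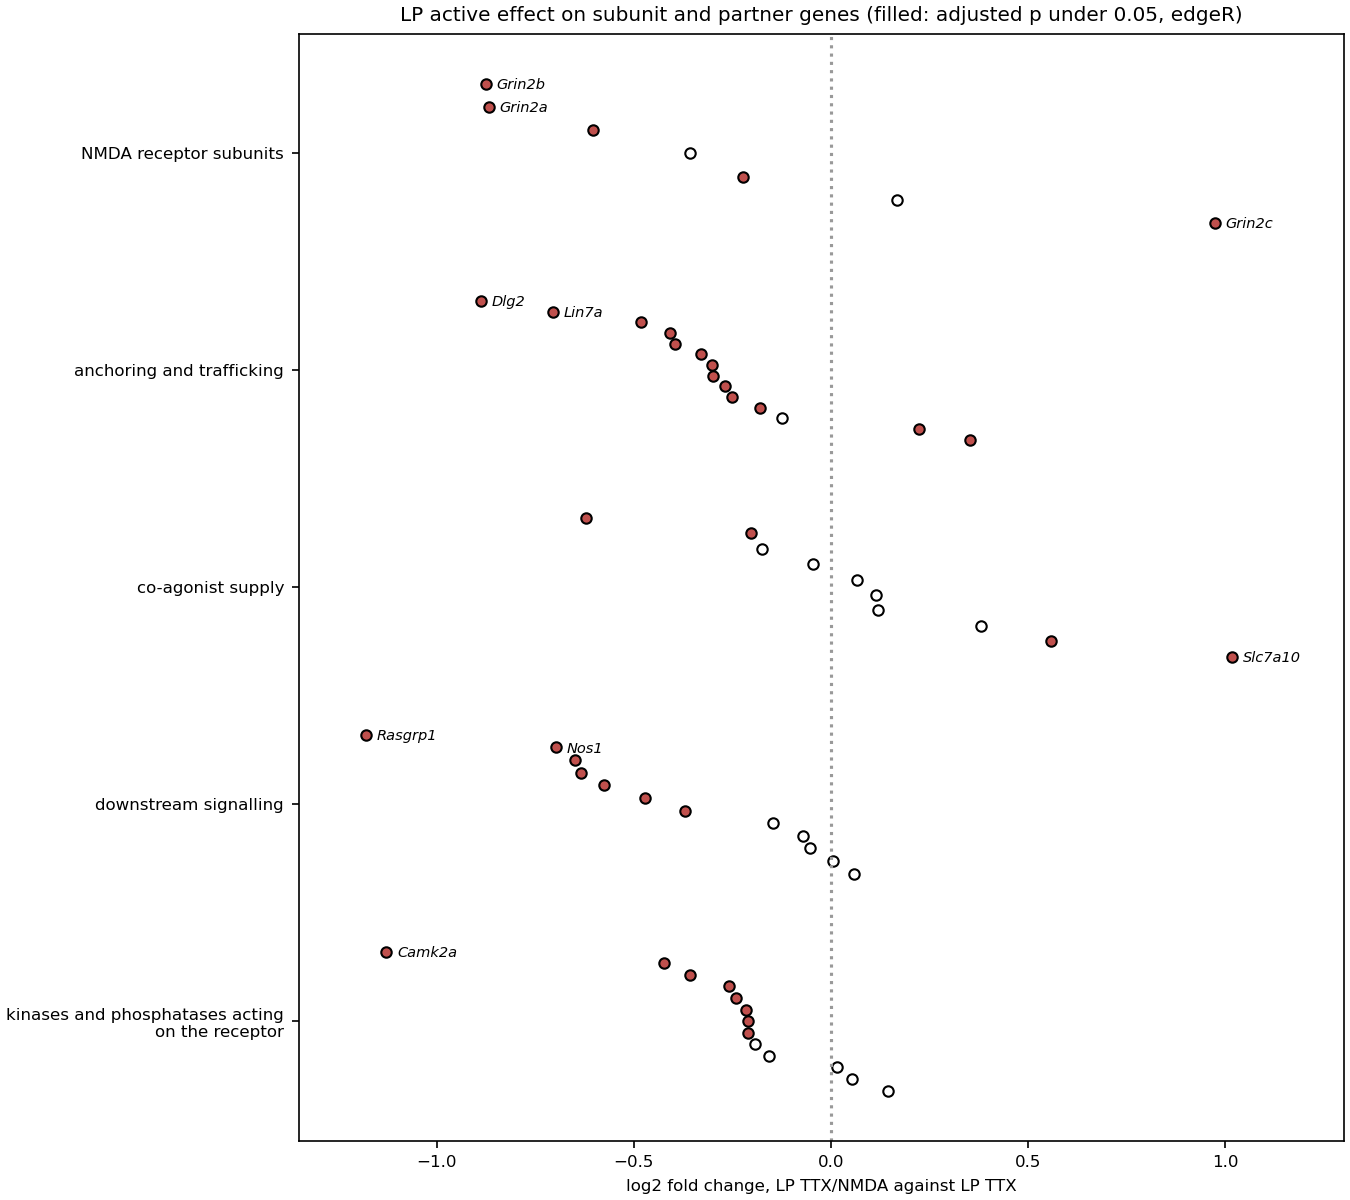
Log2 fold change of LP TTX/NMDA against LP TTX (x axis) for the 7 subunit genes and 49 partner genes in 4 lists (rows, 1 point per gene). Filled points have an adjusted p under 0.05 in edgeR, and called genes beyond 0.65 in either direction are named. Camk2a, Rasgrp1 and Dlg2 fall beside Grin2a and Grin2b, and Grin2c and Slc7a10 are furthest to the right.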

How the data were processed

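The authors deposited raw read counts per gene for 45 libraries: poly-A RNA, strand-specific, single-end with 75 cycles, aligned to GRCm38 with STAR (version 2.5.4b) and counted with featureCounts (version 1.6.5) on the Ensembl 94 annotation, leaving out reads mapped to several places or overlapping several genes. Members and lists were chosen with earlier results of these data known. Symbols came from a table of gene names, and positions, exon lengths and sequences from GENCODE M21, which matches Ensembl 96 on the same build.

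Conditions were compared 2 at a time with edgeR (version 4.0.16), following the samples and the filter of the study's methods: TMM normalization, glmQLFit and glmQLFTest on the libraries of both conditions, genes with at least 1 read, and Benjamini-Hochberg adjustment over all of them, called under 0.05. Intervals are 95%. Alternatives were filterByExpr, RLE normalization, DESeq2 (version 1.42.0), the preparation as a block (with and without filterByExpr), all 45 libraries, and each preparation left out. Per the labels, same-numbered libraries come from the same preparation, and their deviations correlated across 13592 genes, with a mean r per comparison of 0.35 to 0.55. Single pairs ranged from −0.20 (spillover effect) to 0.73 (LP active effect), and the lowest of the SP active effect was 0.01. The blocked value given is that with filterByExpr (the paired fit), because the block over all genes had infinite prior degrees of freedom in 15 of 15 tests. On simulated counts the fit over all genes made more false calls than the filtered fit. Its first simulation failed, and after the failure was seen the simulated dispersions were reset to resemble those of the real fit and the share of false calls allowed was raised. Adjusted p-values of the fit over all genes may therefore be too small, and a call lost with filterByExpr is marked where it stands. Ratios of counts were compared by exact permutation over 252 splits.

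Named were all 7 subunits, up to 4 called genes per partner list with the largest LP active change, and the 3 genes most like each subunit; 2 of these genes and 2 sequences are not reported here. Counts limit precision for Grin2c and Grin3b.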

Additional observations from a re-analysis of the deposited data

Results flagged for a closer look

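In the control, Grin2b of preparation 3 stood apart at 473.6 CPM, with the other 4 libraries between 727 and 814 CPM, and after 1 h Bic Grin2d of preparation 1 stood apart at 53.2 CPM, with the others between 40.1 and 43.8 CPM. Both exceed Dixon's 95% critical value for 5 samples (0.71). These are 2 of 63 groups, and chance flags about 1 group in 20.

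The active effect differed between the protocols (LP minus SP, log2 scale, edgeR) for Grin1 (−0.37, adjusted p = 0.032), Grin2a (−0.52, adjusted p = 0.014) and Grin2b (−0.50, adjusted p = 0.025), and the total effect for Grin1 (−0.44, adjusted p = 0.022). In each case the value was lower in the LP.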

How the results depend on the processing

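Of the single subunit values under the alternatives, 1023 kept their direction and side of the threshold, 67 passed it only under the alternative, 30 no longer passed it, and 0 called values changed sign. The counts for the LP active effect, LP TTX/NMDA against control, and the 0.5 h Bic, SP passive and passive LP minus SP tests stayed within 1.5 times under all 11 alternatives. The numbers of subunits called that moved further were as follows, and the cause was not tested. After 2 h Bic the count of 1 became 2 with RLE normalization, 3 with all 45 libraries and 0 with filterByExpr. For the SP active effect the count of 2 became 0 with all 45 libraries and 1 with filterByExpr, and for the SP total effect 2 became 1 with either. With all 45 libraries the active LP minus SP difference went from 3 to 1 and the total one from 1 to 0.

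With the replicate block over all genes the counts were 1 (1 h Bic), 3 (2 h Bic), 4 (SP active), 5 (LP passive), 5 (LP total), 1 (spillover), 3 (SP TTX/NMDA against control) and 4 (total LP minus SP). With the replicate block and filterByExpr they were 2 (2 h Bic), 4 (SP active), 4 (LP passive), 5 (LP total), 3 (SP TTX/NMDA against control), 6 (active LP minus SP) and 3 (total LP minus SP). Beside the changes named with the results, this fit changed no other call. Leaving out 1 preparation gave 1 to 2 (2 h Bic), 1 to 3 (SP active and SP total), 0 to 1 (LP passive), 0 to 2 (SP TTX/NMDA against control), 1 to 3 (active LP minus SP) and 0 to 2 (total LP minus SP). The ratios to Grin1 went from 4 and 2 calls to 0 with the block (sign flips within preparations, where the smallest possible p is 0.0625) and to 0 without any 1 preparation (range 0 to 0).

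Counts over all genes moved most with the block in most comparisons, though not in LP TTX/NMDA against control. In the paired fit they were 618 against 357 (1 h Bic), 4479 against 2789 (2 h Bic), 2548 against 1379 (SP active), 4217 against 1351 (SP total), 4978 against 1485 (LP passive), 417 against 191 (spillover), 1703 against 398 (SP TTX/NMDA against control), and 323 against 88, 4165 against 900 and 3089 against 515 (passive, active and total LP minus SP). With the block over all genes they were 165 against 87 (0.5 h Bic), 322 against 85 (SP passive), 1215, 4893, 3103, 4351, 4772, 1060, 2338, 701, 4026 and 3217 for the comparisons in the order above. DESeq2 called 2335 (LP passive), 315 (spillover), 697 (SP TTX/NMDA against control), 181, 1632 and 1127 genes (passive, active and total LP minus SP). With filterByExpr the counts were 35 (SP passive), 104 (spillover) and 257 (SP TTX/NMDA against control), and with all 45 libraries 54 and 106 (SP passive and spillover). Leaving out a preparation moved them over 1.5 times, to 52 and 163 without 1 and 3 (SP passive), 918 without 1 (SP active), 801 and 2068 without 1 and 8 (SP total), 928 and 909 without 6 and 7 (LP passive), 127, 123 and 493 without 1, 6 and 8 (spillover), 246, 793 and 779 without 1, 3 and 8 (SP TTX/NMDA against control), 489 without 1 (active LP minus SP), 39, 45, 47 and 39 without 1, 3, 6 and 7 (passive LP minus SP) and 225 without 1 or 3 (total LP minus SP). Depth limits Grin3b, with 2 to 21 reads per library, and Grin2c, with 8 to 98.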
